A study of Drosophila melanogaster with 3 samples.

Results

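The 500 strongest CoRest peaks of the Drosophila melanogaster embryo were examined, set beside the other 8221 peaks that also passed the authors' threshold on reproducibility between replicates. The 500 were selected on the deposited signal of each peak, from the highest down, so their signal, their ranks and the replicate values behind them are descriptions and were not tested. CoRest was mapped by chromatin immunoprecipitation and sequencing (ChIP-seq), in which DNA bound by a protein is precipitated with an antibody and sequenced, and a peak's summit is the base where the signal was highest. The samples were 3 biological replicates of 1 group. All came from a transgenic line that stably expresses CoRest fused at its C-terminal end to green fluorescent protein (GFP), and the antibody was against GFP. Pooled male and female embryos, collected whole at 0 to 24 hours of age, were used, so cell types and stages are pooled, and the peaks describe the tagged protein, since untagged CoRest was not precipitated. Sonication gave fragments of 200 to 800 bp. The analysis starts from peak lists without read numbers, which leaves sequencing depth unknown, and every interval on a share covers counting error only.

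CoRest is the scaffold of a corepressor complex that joins the histone demethylase Su(var)3-3, known as LSD1 in mammals, to the histone deacetylase HDAC1. The complex removes active histone marks, and in mammals it is best known for silencing neuronal genes in other cells. It is brought to its sites largely by DNA-binding factors. In flies, promoters of widely expressed genes often carry sites for the factors DREF and M1BP, while GAGA factor, the product of Trl, binds GAGAG repeats at many developmental and other promoters.

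The DNA under the strongest peaks was on average dominated by A and T. The sequences below are the strongest printed peak of each kind of place, 201 bases centred on the summit, read 5′ to 3′ on the plus strand of the RefSeq Release 6 assembly, which is dm6, and capitals mark runs of at least 8 A or T bases. The 1st lay at a promoter, the 2nd between 500 bp and 2 kb from a start site, the 3rd in distal intergenic DNA, the 4th in a distal intron and the 5th at the start of a non-coding gene. Their GC contents were 36.8%, 30.8%, 23.9%, 37.8% and 39.8% in that order, and their longest A/T runs were 14, 13, 8, 12 and 20 bases. Mean GC content within 100 bp was 30.9% in the 500 and 34.6% in the other peaks, so the 1st, 4th and 5th sequences lay above both means.
Rank 1, upstream of CG14100, chr3L:19590513-19590713: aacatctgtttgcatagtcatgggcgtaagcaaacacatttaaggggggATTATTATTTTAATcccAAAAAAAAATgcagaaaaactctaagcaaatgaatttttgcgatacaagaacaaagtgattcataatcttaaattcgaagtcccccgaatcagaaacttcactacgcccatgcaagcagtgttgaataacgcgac
Rank 2, near lncRNA:CR44619, chrX:12751229-12751429: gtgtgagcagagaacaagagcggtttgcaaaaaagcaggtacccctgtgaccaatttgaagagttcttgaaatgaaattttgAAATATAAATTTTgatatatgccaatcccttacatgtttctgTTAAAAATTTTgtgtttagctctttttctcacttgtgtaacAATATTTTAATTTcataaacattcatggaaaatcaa
Rank 22, upstream of chinmo, chr2L:1638688-1638888: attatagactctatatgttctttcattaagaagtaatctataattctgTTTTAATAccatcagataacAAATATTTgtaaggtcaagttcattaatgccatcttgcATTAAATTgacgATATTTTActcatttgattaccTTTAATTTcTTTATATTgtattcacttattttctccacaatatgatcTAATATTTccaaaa
Rank 42, intron of Tlk, chrX:3742114-3742314: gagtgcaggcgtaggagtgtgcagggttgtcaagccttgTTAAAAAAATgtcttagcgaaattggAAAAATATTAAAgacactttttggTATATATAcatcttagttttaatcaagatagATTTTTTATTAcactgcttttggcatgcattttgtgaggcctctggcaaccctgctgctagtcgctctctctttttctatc
Rank 63, at lncRNA:CR31044, chr3R:29214348-29214548: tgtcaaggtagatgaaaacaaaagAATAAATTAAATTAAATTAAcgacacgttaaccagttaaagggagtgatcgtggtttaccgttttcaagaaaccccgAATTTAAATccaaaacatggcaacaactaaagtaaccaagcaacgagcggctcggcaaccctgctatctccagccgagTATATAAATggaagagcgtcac

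Some promoter members carried 2 short motifs on the borders of the A/T core. The next sequences are the strongest printed promoter peaks that held both the E-box CAGCTG, a site of bHLH factors, and the GAGA factor site GAGAG, with a match on each side 100 to 150 bp from the summit. They run from 150 bases before to 149 bases after the summit on the plus strand, 300 bases each, and capitals mark CAGCTG and GAGAG on either strand (GAGAG reads CTCTC on the other). The 1st lay 186 bp upstream of CG1907 and the 2nd 196 bp upstream of Ldh, the gene of lactate dehydrogenase. Their longest A/T runs were 23 and 17 bases, both between the capitals.
Rank 135, upstream of CG1907, chr3R:29618729-29619028: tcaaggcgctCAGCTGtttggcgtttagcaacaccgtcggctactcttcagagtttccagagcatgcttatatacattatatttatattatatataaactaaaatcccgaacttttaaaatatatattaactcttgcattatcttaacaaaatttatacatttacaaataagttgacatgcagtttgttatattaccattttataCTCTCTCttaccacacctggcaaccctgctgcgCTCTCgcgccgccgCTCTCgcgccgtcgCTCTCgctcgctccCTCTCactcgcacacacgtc
Rank 198, upstream of Ldh, chr3L:6262740-6263039: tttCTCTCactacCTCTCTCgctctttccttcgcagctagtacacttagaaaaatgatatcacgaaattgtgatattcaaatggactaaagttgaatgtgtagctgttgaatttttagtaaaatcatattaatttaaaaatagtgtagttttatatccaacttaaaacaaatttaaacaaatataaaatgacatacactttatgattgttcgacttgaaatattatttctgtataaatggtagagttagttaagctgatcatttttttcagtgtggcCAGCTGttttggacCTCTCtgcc

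The last set shows the sites of DREF and M1BP, which were rarer at promoter members than at other promoter peaks, and AGGTTA, which was more frequent in members away from promoters. The peak upstream of Shc, an adaptor of receptor tyrosine kinases, was the strongest printed promoter member with the DREF site TATCGATA (the DRE), in capitals, and that site lay near the edge of the 201-base window. No promoter among the 500 held the M1BP site GGTCACAC within 100 bp of its summit, so the promoter of RpL7, a ribosomal protein gene, at rank 714 is shown as a weaker peak that did, with the site in capitals in its reverse complement. The final 3 sequences, 101 bases each, are the strongest printed peaks away from promoters with AGGTTA, in capitals on either strand, within 50 bp of the summit.
Rank 60, upstream of Shc, chr3L:9426786-9426986: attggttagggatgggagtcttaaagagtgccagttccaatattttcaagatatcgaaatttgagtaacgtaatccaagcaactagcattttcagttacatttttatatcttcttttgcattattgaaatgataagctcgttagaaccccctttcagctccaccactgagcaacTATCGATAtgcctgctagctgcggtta
Rank 714, promoter of RpL7, chr2L:10200918-10201118: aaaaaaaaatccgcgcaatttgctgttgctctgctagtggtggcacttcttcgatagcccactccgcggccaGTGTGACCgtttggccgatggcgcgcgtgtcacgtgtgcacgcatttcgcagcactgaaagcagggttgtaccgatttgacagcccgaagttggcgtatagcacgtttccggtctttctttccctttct
Rank 68, near CG9837, chr3R:8811631-8811731: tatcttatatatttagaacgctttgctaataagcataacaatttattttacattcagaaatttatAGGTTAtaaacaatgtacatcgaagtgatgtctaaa
Rank 117, near CG3726, chrX:5918861-5918961: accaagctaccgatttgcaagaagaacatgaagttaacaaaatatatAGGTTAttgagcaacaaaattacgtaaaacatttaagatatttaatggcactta
Rank 146, near lncRNA:CR43287, chrX:7706898-7706998: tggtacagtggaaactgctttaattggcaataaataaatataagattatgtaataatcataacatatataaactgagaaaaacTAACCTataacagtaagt

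Signal fell steeply among the 500. The deposited signal was 14527 at rank 1 and 1844.4 at rank 500, a 7.88-fold range, with a median of 2635.6 against 424.2 for the whole thresholded list. What this deposited value measures was not given in the sources used here, and it serves to order peaks inside 1 list. No gap marked the limit: the last 5 members had 1848.1, 1847.8, 1845.4, 1844.5 and 1844.4, and the next 5 peaks had 1843.9, 1841.4, 1841.3, 1841.0 and 1836.2. Just inside lay peaks at unc-5, a netrin receptor gene, at prtp, at Cds and Uba2, at scramb2 and near PRAS40. Just outside lay peaks near ph-p, at SLC5A11, at EMC6 and Hr96, near Act5C and at CG33229. The median width of the 500 was 456.5 bp (319 to 1056 bp), close to the 444 bp of the other 8221 peaks. The same 500 peaks were the 500 strongest of the authors' pooled list.

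Most of the 500 were also among the strongest peaks of each replicate. The replicates enter the pooled list, so these values describe the stability of the choice and are not independent of it. A peak was counted as found when a summit lay within 100 bp in the replicate's list of 30000 peaks, and all but 4 of the 500 (99.2%) were found in all 3 replicates, against 88% of all thresholded peaks. Within 50 bp the number was 477 and within 250 bp it was 499. Of the 500, 453 were among the 500 strongest of replicate 1, 433 of replicate 2 and 456 of replicate 3. All 3 replicates placed 376 of them in their own 500 strongest, 90 were placed there by exactly 2 replicates and 34 by 1, and there was no member that none placed there. The median distance between a member's summit and its replicate summit was 2, 10 and 6 bp in replicates 1, 2 and 3, against 4, 22 and 11 bp for the other peaks. The 4 members missing from a replicate were rank 171 near CG13321, missing from replicate 1, and rank 265 at Atg17 and Xe7, rank 318 upstream of tara and rank 491 in tou, all missing from replicate 2. Rank 318 had neighbouring members at 289 and 325 bp.

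The least stable of the found members were strong in replicate 1 and weaker in the other 2. Rank 449, on the X near CG3149, had ranks 280, 1513 and 780 in replicates 1, 2 and 3. Rank 368, upstream of the Notch target gene E(spl)m7-HLH, had ranks 170, 960 and 1264. The other 3 were the member at unc-5 just inside the limit (313, 1104 and 836), rank 406 in Pak3, a kinase gene (205, 747 and 1053), and rank 475 at Ama (279, 989 and 1015). All 5 stayed within the 30000 peaks of each list and all ranked below 500 in replicates 2 and 3.

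**Figure D1:**
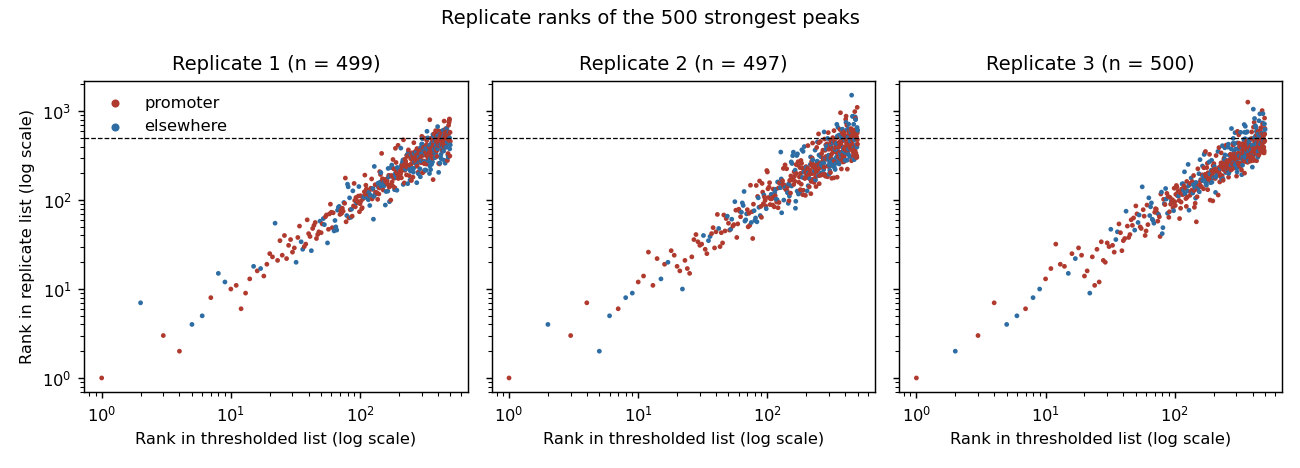
Rank of each of the 500 strongest peaks in the thresholded list (x axis, log scale) against its rank in each replicate's own list (y axis, log scale), with promoter peaks in red and others in blue and the dashed line at rank 500. The points follow the diagonal, and the lowest replicate ranks were 817, 1513 and 1264 in replicates 1, 2 and 3.

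The very top of the list held promoters and introns side by side. Rank 1 lay 89 bp upstream of CG14100, with signal 7932.7, 1989.2 and 4668.5 in replicates 1, 2 and 3, and it was the highest peak of each list. Rank 2 (dm6 X, 12750802 to 12751690) lay 538 bp from the start of lncRNA:CR44619 and ranked 7, 4 and 2 in the replicates, and a second member, rank 75, lay 493 bp from a start of the same gene. Rank 3 at mRpL41, rank 4 at Art3 and mRpS10, rank 7 at Ugalt and rank 10 at CG18428 and eIF4EHP were promoter peaks. mRpL41 and mRpS10 encode proteins of the mitochondrial ribosome, and eIF4EHP is a cap-binding repressor of translation. Rank 5 (2L, 480830 to 481346) lay inside ush, which encodes a partner of GATA factors, and 1375 bp upstream of cbt, which encodes a zinc finger transcription factor, and it ranked 4, 2 and 4. Rank 6 (2L, 6612461 to 6612938) lay 1029 bp inside CG11050 and ranked 5, 5 and 5. Rank 8 (2R, 21703114 to 21703712) lay in an intron at the HMG-box genes HmgD and HmgZ, with ranks 15, 8 and 8. Rank 9 (3L, 14759268 to 14759793) lay in an intron of Trl, the gene of GAGA factor, 1531 bp from a start site, with ranks 12, 9 and 10. All 10 summits lay within 2 kb of a start site. The next promoter peaks were rank 11 at CG18549, rank 12 at px, rank 13 at ph-p, rank 14 at Pal1 and Pdrg1 and rank 16 at Fkbp14, of which the px peak ranked 6, 26 and 32 in replicates 1, 2 and 3 and the ph-p peak 9, 11 and 19.

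The 500 strongest peaks lay at promoters more often, and far from genes' starts less often, than the other thresholded peaks. Peaks were called promoter peaks when the summit and a protein-coding start site were at most 500 bp apart: 317 of the 500 were (63.4%, exact 95% interval 59.0 to 67.6%), against 46.5% of the other 8221 and 47.5% of all thresholded peaks. The next 500 peaks had 57.4%. In the replicates, with each replicate's own 500 strongest set against its next 8221 peaks, the shares were 60%, 63% and 64.6% in the strongest, against 48.8%, 48.8% and 44.3% in the rest, so the groups did not overlap. The means were 62.5% ± 2.34 and 47.3% ± 2.57 (SD, n = 3; exact sign-flip permutation test over replicates, 2-sided p = 0.25). With 3 replicates this test cannot go below 0.25, so no difference reported here could pass 0.05, and the replicate values show the spread. The replicates enter the pooled list as well, so they describe its stability and are not independent of the choice.

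Distal summits, over 2 kb from the start site of any gene, numbered 65 of the 500 (13%, exact 95% interval 10.2 to 16.3%), against 30.9% of the others and 29.9% of all thresholded peaks. The next 500 peaks had 20.6%. The replicates gave 16.2%, 12% and 12.2% in their strongest, against 29.4%, 28.8% and 31.9% in the rest (means 13.5% ± 2.37 and 30.0% ± 1.61, SD, n = 3; exact sign-flip permutation p = 0.25). Distal summits in genes made up 9.6% of the 500 against 21.2% of the others, and distal intergenic summits 3.4% against 9.68%. The share between 500 bp and 2 kb from a start was the same, 20.2% and 20.2%, and the start sites of non-coding genes held 3.4% against 2.37%. By position in the gene, 250 of the 500 summits (50%) lay in introns, against 45.4% of the others. Introns here are all gene sequence outside coding sequence and untranslated regions of protein-coding genes, so exons of non-coding genes are included. Intergenic DNA held 213 (42.6% against 45.8%), 5′ untranslated regions 34 (6.8% in both) and 3′ untranslated regions 3 (0.6% against 1.57%). The intron and intergenic differences kept their direction in 2 of 3 replicates. None of the 500 summits lay in coding sequence, which the exact 95% interval limits to 0.735% of such peaks, while 0.377% of the others did.

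**Figure D2:**
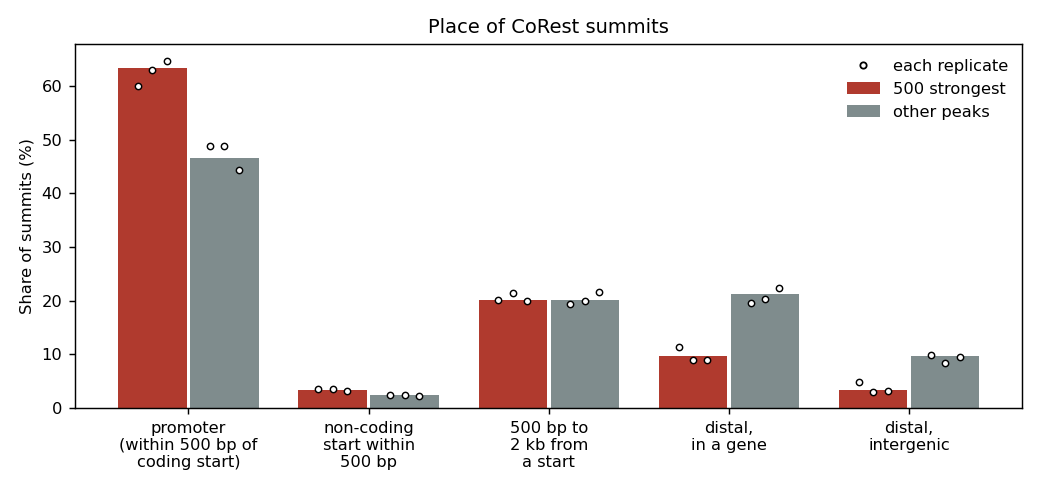
Share of summits in each kind of place (y axis, percent) for the 500 strongest thresholded peaks (red) and the other 8221 (grey), with open circles for the same split in each of the 3 replicates. The promoter bar is higher in the strongest (63.4% against 46.5%) and both distal bars are lower.

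The strongest members outside promoters were as follows. Among those 500 bp to 2 kb from a start were rank 15 in CG32772, rank 17 in Lk6, which encodes a kinase of the translation factor eIF4E, rank 36 in CG9663, rank 53 in chif, whose product is needed for DNA replication, and rank 64 in Adf1, a transcription factor gene. Among distal members inside genes were rank 42 in Tlk, rank 49 in simj, which encodes a subunit of a nucleosome remodelling and deacetylase complex, rank 52 in CG12769, rank 65 in the ecdysone-induced nuclear receptor gene Hr3 and rank 67 in Kdm2, a histone demethylase gene. The replicate ranks of the Kdm2 peak were 77, 58 and 61 and those of the Hr3 peak 50, 87 and 84. Distal intergenic members included rank 22 and rank 98 at 12470 and 7824 bp upstream of chinmo, rank 35 at 11910 bp from CG13323, rank 56 at 3336 bp from CycB and rank 80 at 19169 bp upstream of CG43245. The pair near chinmo, which encodes a regulator of neuronal temporal identity, ranked 55, 10 and 9 (rank 22) and 142, 80 and 76 (rank 98) in replicates 1, 2 and 3, both lowest in replicate 1. At starts of non-coding genes lay rank 32 at lncRNA:CR44339, 4214 bp from the Polycomb gene Psc, rank 63 at lncRNA:CR31044, rank 69 at lncRNA:CR46036 inside osa, rank 75 at lncRNA:CR44619 and rank 81 at asRNA:CR44429 inside gce, the gene of a juvenile hormone receptor.

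At promoters the strongest summits sat farther upstream than the others. Their median position was -165 bp from the closest protein-coding start, against -109 bp for the other promoter peaks and -143 bp for those among the next 500 peaks. The replicate medians were -166, -161 and -161 bp in the strongest, against -106, -93 and -117 bp in the rest (means -162.7 ± 2.89 and -105.3 ± 12.0 bp, SD, n = 3; exact sign-flip permutation p = 0.25). The interval from 200 to 100 bp upstream held 45.4% of the strongest and 29.3% of the others. The last 100 bp before the start held 10.4% and 32.3%, and only 5.36% of the strongest summits lay within 50 bp of a start site, against 20.5% of the others. Replicates gave 4%, 5.71% and 5.88% for this last share, against 21.3%, 25.4% and 18.2%. The strongest summits were upstream of the start site in 89.3% of cases and the others in 85.9%.

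**Figure D3:**
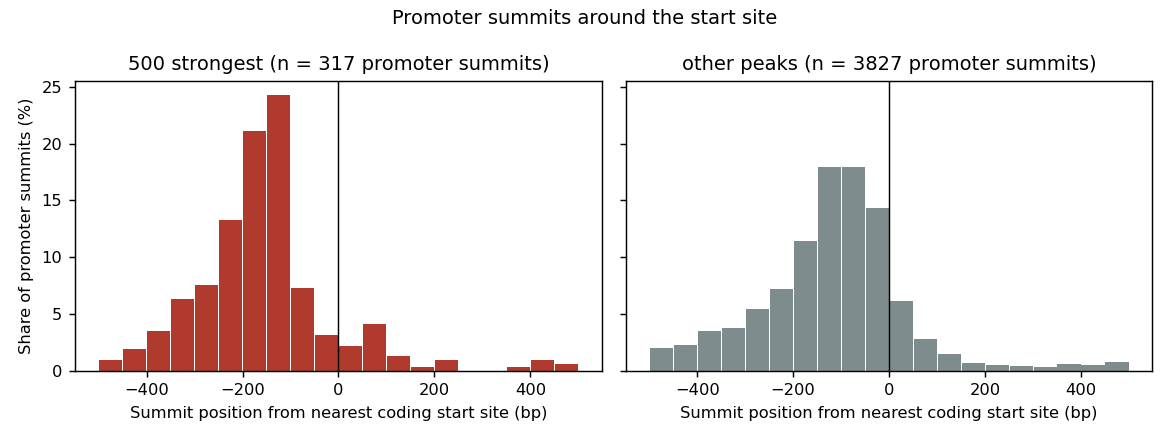
Position of promoter summits relative to the nearest protein-coding start site (x axis, bp, negative upstream) as a share of promoter summits in 50-bp intervals (y axis, percent), for the 317 promoter peaks of the 500 strongest (red, left) and the 3827 others (grey, right). The strongest pile up between 200 and 100 bp upstream (45.4%, against 29.3% of the others) and thin out in the last 100 bp.

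Divergent promoters, where start sites of opposite strand lie head to head within 500 bp, held 121 of the 317 promoter members (38.2%, exact 95% interval 32.8 to 43.8%), against 30.5% of the other promoter peaks and 31.1% of all thresholded promoter peaks. Replicates gave 36%, 33.7% and 38.4% in their strongest, against 31.3%, 30.0% and 30.8% in the rest (exact sign-flip permutation p = 0.25). Against the next 500 peaks, with 39.7%, the difference turned to -1.55 percentage points, and the 1000 peaks after those had 42.5%. With start sites up to 1000 bp apart the shares were 44.2% and 41.3%, a difference of 2.85 points. The share was 24.2% in the 2721 weakest. Of the 317 promoter members, 179 had the start sites of 1 gene within 500 bp, 134 of 2 genes and 4 of 3 or more. In the gene counts, a peak with start sites of more than 1 gene within 500 bp was counted for each of them. Which of them such a peak belongs to was not tested.

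The A/T-rich core was deeper and its borders steeper in the strongest peaks. Within 50 bp of the summit the mean GC content was 27.1% in the 500 against 33.3% in the others, while 100 to 200 bp away the order was turned, with 43.3% against 40.2%. The drop into the core was therefore -16.2 percentage points in the 500 and -6.94 in the others. In replicates 1, 2 and 3 it was -16.3, -15.8 and -15.6 in the strongest, against -6.28, -5.66 and -7.26 in the rest (exact sign-flip permutation p = 0.25). At promoters the drop was -16.0 against -3.93 and away from promoters -16.5 against -9.56. Within 100 bp the GC content was 30.9% in the 500 and 34.6% in the others (replicates 31.2% ± 0.454 and 35.0% ± 0.689, SD, n = 3; exact sign-flip permutation p = 0.25). The next 500 peaks had 31.6%, so low GC content was not limited to the 500. Within 250 bp, where core and borders are summed, it was 38.5% in both, with a difference of 0.0835 percentage points.

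GC content varied among the 500. It ranged from 13.4%, at the promoter shared by FucTB and scat (rank 206), to 54.7%, at moody, a receptor gene of the blood-brain barrier (rank 464), with a median of 30.3%. A share of 16.4% of the members lay under 25%, against 8.61% of the others, and 42 members had 40% or more. In 499 of the 500 (99.8%), every 31-base sequence around the summit occurred once in the assembly, close to the 98.6% of the others.

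**Figure D4:**
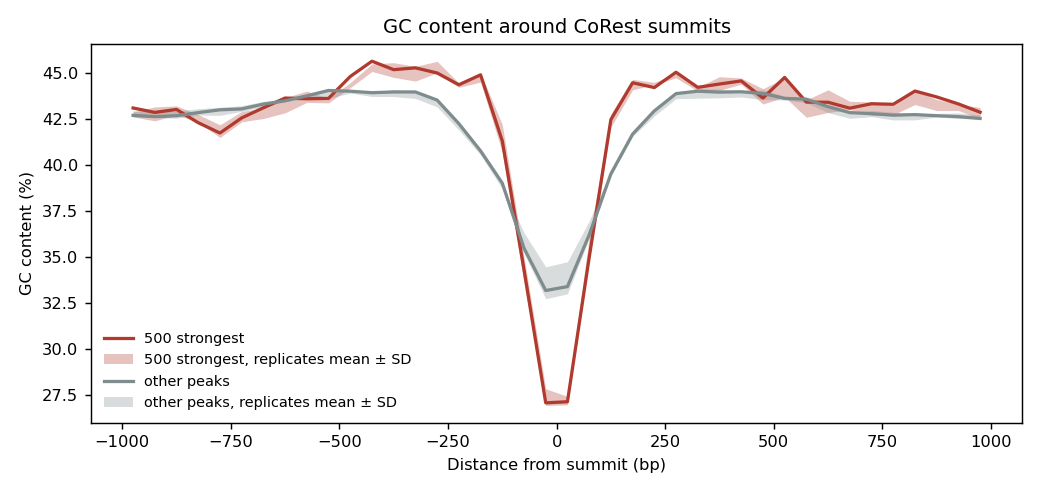
Mean GC content in 50-bp intervals (y axis, percent) by distance from the summit (x axis, bp) for the 500 strongest peaks (red) and the other 8221 (grey); shaded bands are the mean ± SD over the 3 replicates. The 500 fall to 27.1% at the centre, against 33.2% in the others, and lie above the others between 100 and 300 bp on both sides.

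Sites of M1BP and DREF, common at promoters of widely expressed genes, were rare under the strongest promoter summits. Matches were counted on both strands within 100 bp of the summit. The M1BP site GGTCACAC was found at 0 of 317 promoter members (exact 95% interval 0 to 1.16%), against 275 of 3827 others (7.19%) and 6.64% of all thresholded promoter peaks. In replicates 1, 2 and 3 none of the strongest held it, against 7.31%, 8.07% and 6.97% of the rest (exact sign-flip permutation p = 0.25). Going down the list, its share was 1.05% in the next 500 peaks, 2.94% in the 1000 after those, 6.87% in the next 2000 and 9.67% in the 2000 after that. The M1BP gene itself shares a promoter member with CG8202, rank 277, with 15.9% GC within 100 bp of the summit. M1BP sites stayed at 0 in all 4 classes of summit GC content, where the other promoter peaks had 1.15 to 11.4%.

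The DRE was found at 9 of 317 promoter members (2.84%, exact 95% interval 1.31 to 5.32%), against 9.72% of the others and 9.19% of all thresholded promoter peaks. Replicates gave 3%, 2.22% and 2.79% in the strongest, against 9.48%, 10.3% and 8.97% in the rest (exact sign-flip permutation p = 0.25). The next 500 peaks had nearly the same share, 2.79%, a difference of 0.0517 percentage points, so the scarcity was not limited to the 500. The 9 members included rank 54 at eIF6, a factor of ribosome subunit assembly, rank 60 at Atat and Shc, rank 188 at Lamtor3 and fws, rank 221 at CG11151 and rank 455 at Tdrd3 and bmm, a lipase gene. Rank 344 at PlexA, the gene of a semaphorin receptor, was another, and the only member on chromosome 4. CGATA, bound by BEAF-32 and counted only outside a DRE, was at 22.1% of promoter members against 39.4% of the others and 38.1% of all thresholded promoter peaks (replicates 23.2% ± 0.745 and 39.2% ± 1.39, SD, n = 3; exact sign-flip permutation p = 0.25). The next 500 peaks had 28.9%.

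Because the strongest summits lay farther upstream, these sites were also counted within 150 bp of the start site. The M1BP site was there in 2.84% of promoter members and 12.6% of the other promoter peaks, against 6.32% of all 19252 start positions. The DRE was there in 4.42% and 13.2%, against 7.09% of all start positions. Among summits 100 to 200 bp upstream alone, a window chosen after the data were seen, the M1BP site was at 0 of 145 members and 3.76% of the others, and the DRE at 4.83% and 7.61%.

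At promoter members the E-box CAGCTG was most frequent on the borders of the core, and the GAGA factor site GAGAG on the borders and beyond them. This pattern and its window were chosen after the profiles were seen, so they are descriptions. CAGCTG was 100 to 200 bp from the summit in 86 of 317 promoter members (27.1%) and 12.5% of the other promoter peaks, with 20.6% in the next 500 peaks. In replicates 1, 2 and 3 the strongest had 26.3%, 26.7% and 24.8%, against 12.0%, 12.4% and 12.3% in the rest. Per 50-bp interval its share in the members was 9.46% from 200 to 150 bp before the summit, 8.20% from 100 to 150 bp after it and 0.946% and 0.631% in the 2 intervals at the summit, while in the others it ranged from 1.96% to 4.47%. Away from promoters it was at 8.20% of the members and 8.83% of the others.

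GAGAG was 100 to 200 bp from the summit in 133 promoter members (42.0%) and 22.99% of the others, with 33.8% in the next 500 peaks. It was not limited to these borders. From 400 to 200 bp before the summit, each 50-bp interval held it in 12.0% to 13.6% of members and 6.04% to 7.16% of the others. From 200 to 300 bp after the summit the 2 intervals had 15.5% and 12.9%, against 8.02% and 8.05%. The strongest of replicates 1, 2 and 3 had 41.7%, 43.2% and 39.6%, against 22.9%, 23.9% and 23.4% in the rest. Away from promoters it was at 46.4% of the members and 28.5% of the others (replicates 45.8% ± 1.26 and 28.1% ± 0.444, SD, n = 3). Within 100 bp of promoter summits its share was 17.4% in members and 17.7% in the others, with a difference that changed sign between settings. Within 150 bp of the start site GAGAG was at 47.0% of members and 33.1% of the others, against 33.6% of all start positions. The borders also held more G and C in the members, so the shares were taken within classes of border GC content. At 45% or more, GAGAG was at 60.7% of members against 38.7% of the others and CAGCTG at 24.1% against 18.1%. From 40 to under 45% they were at 35.1% against 26.7% and 28.7% against 16.4%, but in replicate 3 GAGAG was at 25% against 27.3%. Under 40% they were at 28.8% against 16.6% and 28.8% against 9.13%.

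**Figure D5:**
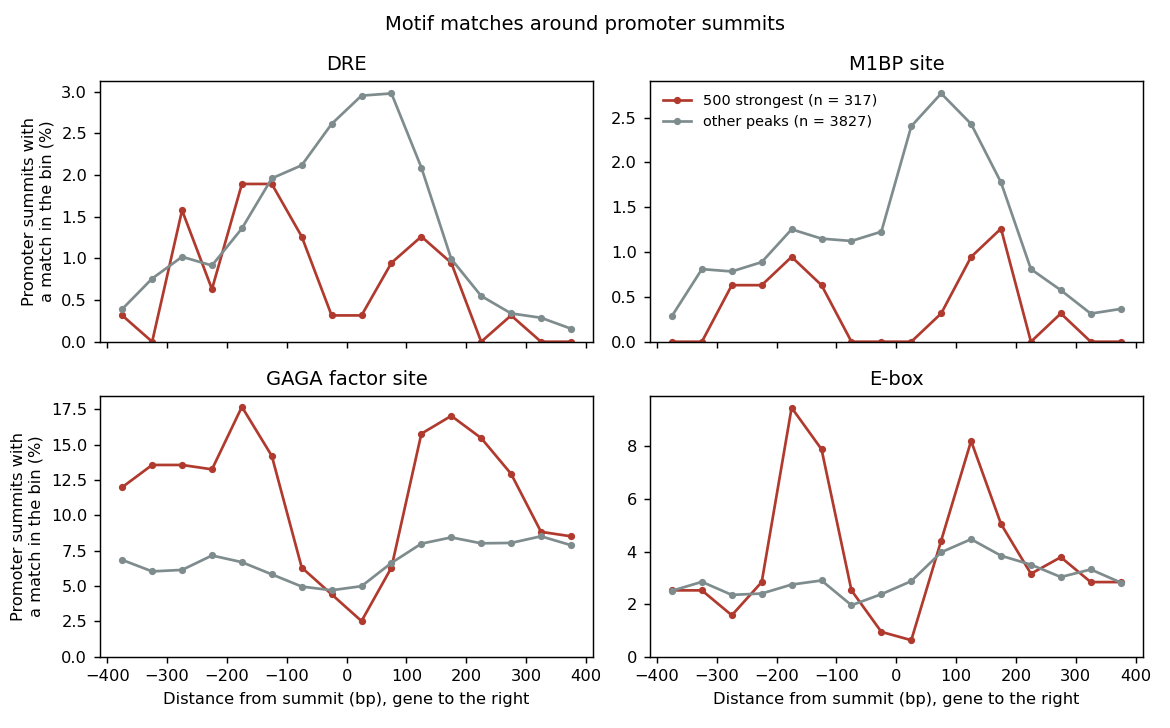
Share of promoter summits with a match in each 50-bp interval (y axis, percent) by distance from the summit (x axis, bp, the gene's direction to the right), for 317 promoter members (red) and 3827 other promoter peaks (grey). The DRE and M1BP site peak near the centre or just gene-side in the others and not in the members, whereas GAGAG and the E-box rise on both sides of the members' core.

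A/T-rich motifs were more frequent at the members, but not in every class of GC content. The TATA box TATAAA was within 100 bp of 49.5% of promoter members, against 37.1% of the others and 38.1% of all thresholded promoter peaks. The next 500 peaks had 49.1%, so the higher share was not limited to the 500. Under 28% GC the shares were 60.2% and 62.1%, and from 36% GC upward 35.4% and 19.8%. Away from promoters TATAAA was within 100 bp of 42.08% of member summits, 2.045 percentage points above the others. Within 150 bp of the start site it was at 39.75% of promoter members and 34.05% of the others, against 37.08% of all start positions. Whether the matches near the summits serve as TATA boxes was not tested. The homeobox core TAATTA was within 100 bp of promoter summits in 24.6% and 19.1%, with 34.7% and 34.5% under 28% GC. Of the 25 sequences of 6 bases that gained most at promoter members, 19 held A and T alone, and of the 25 that gained most away from promoters 18 did. Of 28 shares, 14 motifs in each place, none could pass 0.05.

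Away from promoters AGGTTA was more frequent in the strongest peaks. It was chosen after its share was seen, among 2080 sequences of 6 bases, and has no test. By gain in members away from promoters it stood 22nd of these, and the interval given here does not allow for that choice. It lay within 100 bp of 25 of 183 member summits (13.7%, exact 95% interval 9.04 to 19.5%), against 5.37% of the others and 5.7% of all thresholded peaks away from promoters. Replicates gave 14%, 11.4% and 12.4% in the strongest, against 5.25%, 5.49% and 5.40% in the rest. For the 1000 strongest the share was 9.09%, against 5.38% of the rest. At promoters it was at 5.05% of members and 5.51% of the others.

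The 500 peaks touched the promoters of 460 of 13945 protein-coding genes (3.3%), or 9.33% of the 4930 genes with any thresholded promoter peak, and had a summit inside or within 2 kb of 842 genes (6.04%). Gene lists were drawn up with earlier results of these data known, so their counts are set beside these figures and were not tested. Long genes hold more summits, and genes that share a window share the peak.

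Many of the listed chromatin regulator genes had a member nearby. Of 26 Polycomb and Trithorax group genes, which keep developmental genes off or on, 10 (38.5%) had a member inside or within 2 kb. The share of all protein-coding genes was 6.04%. At the promoter 3 (11.5%) had one, against 3.3% of all protein-coding genes. The promoter members were at ph-p (rank 13), a subunit of Polycomb repressive complex 1, brm (rank 70), the ATPase of the Brahma remodelling complex, and E(z) (rank 104), the histone H3 methyltransferase of Polycomb repressive complex 2. The others within 2 kb were ash1 (rank 1), Trl (9), Pc (50), ph-d (66), osa (69), trx (88) and phol (102). Rank 1 lay at the promoter of CG14100 and rank 50 at that of CG11309 and CG7632. Rank 102 lay at the promoter of CG3437 and CG3552. Of 14 insulator genes, Chro (20) and Cp190 (46) had a promoter member (14.3%, against 3.3% of all genes). Trl and mod(mdg4) (152) had one within 2 kb. In the list of CoRest complex and partner genes, 3 of 10 (30%) had a member at the promoter. They were chn (137), a zinc finger repressor gene, gro (385), a corepressor gene, and HDAC1 (416). Of these, only HDAC1 encodes a subunit of the complex as described above. The gro peak also lay within 2 kb of E(spl)m8-HLH. Sin3A (382), the scaffold of another deacetylase complex, had one within 2 kb.

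Lists of protein synthesis genes ranged from 2.17% to 10% of genes with a promoter member, against 3.3% of all protein-coding genes. Among all genes with any thresholded promoter peak the share was 9.33%. Mitochondrial ribosomal proteins had a promoter member at 7 of 73 genes (9.59%), or 16.3% of the 43 with any thresholded promoter peak, namely mRpL41 (3), mRpS10 (4), mRpS23 (33), mRpL23 (55), mRpL24 (156), mRpL20 (272) and mRpS2 (384). Cytosolic ribosomal proteins had one at 2 of 92 genes (2.17%), RpL34b (357) and RpS27 (457), or 2.53% of the 79 with any thresholded promoter peak, and 6.52% had a member within 2 kb, near the 6.04% of all genes. The difference between the lists was not tested. In the replicates' own 500 strongest the shares of all listed genes were 9.13% ± 0.791 and 1.81% ± 0.628 (SD, n = 3). Aminoacyl-tRNA synthetases, which charge tRNAs, had one at 3 of 30 (IleRS 316, SerRS 405 and ThrRS 409) and translation initiation factors at 2 of 44, or 4.55% (eIF4EHP 10 and eIF6 54). Respiratory complex I had 1 of 40 (2.5%, ND-MWFE 263). The shares of cytosolic ribosomal proteins, initiation factors and complex I were near that of all genes.

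Other basic machinery had counts at promoters on both sides of the share of all genes (3.3%). Proteasome genes had no promoter member at 48 genes, ATP synthase none at 13 and cell cycle genes none at 26, while 20, 5 and 22 of them had a weaker thresholded promoter peak. With lists this short, 0 is close to the number that the share of all genes gives. DNA replication had 1 of 24 (4.17%), RnrS (328). The Mediator list had 2 of 25 (8%), MED27 (408) and MED17 (430). Of 15 TBP-associated factors 1 (6.67%) had a promoter member, Taf5 (201), and 5 (33.3%) had one within 2 kb, against 6.04% of all genes.

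The ecdysone and Notch lists had promoter members at 16.7% and 15% of their genes, against 3.3% of all protein-coding genes. Of 12 ecdysone response genes, E23 (40), an ABC transporter gene, and Eip75B (338), a nuclear receptor gene, had a promoter member, and Hr3 (65) and Hr4 (364) had one within 2 kb. Of 20 Notch pathway genes 3 had one at the promoter: E(spl)m3-HLH (99), numb (179), an inhibitor of Notch, and E(spl)m7-HLH (368). Both mam (262) and E(spl)m8-HLH (385) had one within 2 kb, which makes 5 of 20 (25%, against 6.04% of all genes). The peak near E(spl)m8-HLH is the gro promoter peak, so it was counted in 2 lists. The RNA-binding list had elav (78), a gene of neurons, 1 of 10. Wnt and Hedgehog genes had sgg (218), the kinase GSK3, 1 of 23 (4.35%, near the 3.3% of all genes). None of 20 neural temporal and neuroblast genes had one at the promoter, which for so short a list is close to the share of all genes. Within 2 kb chinmo (213) and brat (356) had one (10%, against 6.04% of all genes).

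Some loci held several of the 500. CG1677, a gene of 124709 bp on the X, held 5 (ranks 168, 193, 260, 456 and 494) among 24 thresholded summits. CHES-1-like, a forkhead gene of 27048 bp, and Raf, a kinase gene of the MAP kinase pathway, held 4 each. Then came simj (49, 85 and 225), tara (83, 189 and 203), CG14434 (126, 264 and 363) and the corepressor gene sbb (229, 293 and 305) with 3 each. cbt and ush share the pair of ranks 5 and 247, the first of the genes with 2 by strongest rank. The closest pair lay 199 bp apart on 2L (ranks 36 and 215) and the next 201 bp apart on 2R (ranks 311 and 490). In all, 14 neighbouring pairs lay within 1 kb and 53 within 5 kb, so members are not all independent places.

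The 500 were spread over all arms. 2L held 111, 2R 87, 3L 100, 3R 112, X 89 and chromosome 4 held 1. The share on 2L was 22.2% (exact 95% interval 18.6 to 26.1%), against 17.7% of the other peaks, and the replicates' strongest gave 21.4%, 21.6% and 22%, against 17.8%, 17.9% and 17.9% in the rest (exact sign-flip permutation p = 0.25). That is 4.72 members per Mb on 2L and 3.44 to 3.78 per Mb on the other large arms.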

How the data were processed

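ChIP-seq of GFP-tagged CoRest was deposited as peak lists for 3 replicates, their pool, and a list thresholded on reproducibility (IDR), all on dm6 per the file listings; aligner, peak caller and IDR threshold were not given in the sources used here. Signal is the authors' deposited value per peak, taken here for its order alone. The summit was the peak's start plus the deposited summit offset. The members were the 500 highest signals, ties by position. Members, gene lists and most motifs were chosen with earlier results of these data known.

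Genes came from Ensembl release 115, with 13945 protein-coding genes and 19607 start sites (23998 of all genes), and sequence from the RefSeq Release 6 assembly, whose arm lengths were compared with the last peak on each arm. Of the symbols in 19 gene lists, 4 were matched through synonyms and 1 was not matched. Within each replicate, the 500 strongest were compared with the next 8221. Motifs were matched on both strands, namely DRE, M1BP, CGATA outside a DRE, GAGAG, the E-box, the TATA box and the homeobox core as spelled in the text, the Zelda site CAGGTA, the poly-A run AAAAAAAA, the initiator TCAGT, the GATA factor site AGATAA, the repeat unit CACACA, the Pho site GCCAT and the Ttk site AGGAT; only CGATA and the DRE were kept from overlapping. Differences over replicates were tested by an exact sign-flip permutation, 2-sided, adjusted over motifs by Benjamini-Hochberg, which gave 0.318 at the lowest. The motif search and the GC count were checked on made-up sequences with planted sites. The comparison of peak lists and replicates was not simulated. Intervals are exact Clopper-Pearson at 95%. Replicates were 3 biological samples, and the p-value of the sign-flip test was 0.25 whenever the 3 differences shared a sign, whatever their spread.

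Named were the 10 strongest members, the 5 strongest others of each kind of place, the 5 peaks on each side of the limit, the 8 genes with most members, the closest pairs, up to 4 genes per list by strongest promoter member, members missing from a replicate and the 5 with the lowest replicate rank. Genes beyond 4 in a list, those within 2 kb, the DRE members, the M1BP gene and the GC extremes were named after their values were seen. Sequences came from arms 2L, 3L, 3R, 4 and X. Python 3.11.15 with pandas 2.3.3, numpy 2.4.6, scipy 1.17.1, statsmodels 0.14.6 and matplotlib 3.10.9 was used.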

Additional observations from a re-analysis of the deposited data

How the results depend on the processing

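Promoter share, distal share, promoter position, the M1BP, CGATA and Zelda shares, AGGTTA and the border shares of GAGAG and CAGCTG kept their direction under the alternatives run for each: the 250 or 1000 strongest, the next 500 peaks or the 500 weakest as the comparison, and each replicate left out. Other windows were also run for promoter and distal shares and for the M1BP, CGATA and Zelda shares, and not for promoter position, AGGTTA or the border shares. Their differences, in percentage points unless stated, ranged from 6 to 27.4 for promoters, -24.2 to -7.6 for distal summits, -96.5 to -22 bp for position, -11.4 to -1.05 for M1BP, -22.7 to -6.84 for CGATA and 3.71 (1000 strongest) to 8.60 for AGGTTA. GC content turned to 0.0835 with a 250 bp window. Against the next 500 peaks, the divergent share turned to -1.55, DRE to 0.0517, GAGAG to 0.277, homeobox core to -2.92, poly-A to -3.26, initiator to 1.18, the GATA factor site to -0.189, E-box to 3.32, Pho to 0.413 and Ttk to -0.571. Pho was 6.05 against the 500 weakest, and GAGAG 0.654 for the 250 strongest. Leaving out a replicate gave -0.237 to 1.52 for GAGAG (main -0.340). With a 200 bp window GAGAG was 14.1, homeobox -2.17, poly-A -1.20, initiator 2.36, GATA -2.12, E-box 10.9, CACACA 1.498 and Ttk -3.57. Around the start site, a choice made after seeing the data like the next 2, GAGAG was 13.9, homeobox -1.81, initiator 6.78, GATA -1.62, E-box 4.93, CACACA 3.25 and Ttk -5.66. At summits 100 to 200 bp upstream GAGAG was 0.0833, initiator 3.03 and Ttk -3.60. Within GC classes TATA was -1.90 under 28% and -0.511 at 32 to under 36%, and homeobox -1.70 from 36%. For these the cause was not tested. The study has 1 group, and the sign-flip test already pairs the strongest and the other peaks of each replicate. Depth is unknown, and 317 promoter summits limit rare motifs.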
